A study of Mus musculus with 6 samples.

Results

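Transcripts of 39 adhesion genes were followed in sorted haematopoietic stem cells (HSCs) of Ramp1 mutant and wild-type mice. The set holds 22 integrin subunits, 14 alpha and 8 beta, and 17 other molecules by which HSCs contact their bone marrow niche. It was chosen by gene name from a table of 35275 genes, and all 39 genes were also present in the table of 18368 genes with read counts. RNA came from about 2000 HSCs per library, sorted from the bone marrow of adult mice. Of the 6 libraries, 3 came from mice labelled Ramp-/- and titled Ramp1 mutant, and 3 from Ramp1+/+ mice. Ramp1 is a subunit of the receptor for the sensory neuropeptide CGRP, and the series title names pain-sensing nerves and HSC mobilization. The labels give neither the allele, the surface markers of the sort nor the sex of the mice. Nor do they say whether each library came from its own animal, so the p-values here cover library-to-library spread, which may be technical.

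Integrins are heterodimers of 1 alpha and 1 beta subunit that bind matrix proteins or receptors on other cells, and each alpha subunit sets most of the ligand choice. The beta 1 subunit pairs with alpha 4 to bind VCAM1 and fibronectin, with alpha 5 to bind fibronectin, with alpha 6 to bind laminin and with alpha 2 to bind collagen. In the marrow, such contacts together with CD44, selectin ligands and junctional adhesion molecules hold HSCs in place, and blocking alpha 4 beta 1 releases them into the blood. In bulk RNA, fewer cells of a type and less RNA per cell cannot be told apart.

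The libraries held 22796771 to 26734561 reads counted in genes. Ramp1 had 3.53, 2.65 and 1.35 FPKM (fragments scaled to gene length and to all counted reads) in the mutant libraries, against 91.4, 88.3 and 91.0 FPKM in wild type. All 11 HSC identity markers were detected, with Kit and Procr among them, and their summed level was 1252 to 1572 FPKM in mutant and 1219 to 1469 FPKM in wild-type libraries. Replicate 1 of each group stood apart from the other libraries of its group by Y-linked reads, 6137 in mutant and 6527 in wild type against at most 2 elsewhere. Xist, another sex-linked gene, had 5 reads in mutant and 10 in wild-type replicate 1, against 1456 to 3540 elsewhere. Sex-linked reads were thus of male type in replicate 1 and of female type in the other libraries. Neutrophil markers also varied, with a summed level of 240, 937 and 1245 FPKM in the mutant libraries and 92.8, 386 and 906 FPKM in wild type.

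The adhesion transcripts spanned a wide range of levels. By their mean over the 6 libraries, 5 genes had at least 100 FPKM, 14 had 10 to 100 FPKM, 11 had 1 to 10 FPKM and 9 had less than 1 FPKM. The 5 most abundant were Cd63, Itgb1, Cd47, Cd9 and Selplg. Among integrins the order was Itgb1, Itga6, Itga2b, Itga5, Itgb3 and Itgb2. Itgb7 and Itga4 followed. Itga7, Itgb8 and Itgax, subunits known from muscle, from epithelial and glial cells and from dendritic cells, had 2, 2 and 10 reads over all libraries. They did not pass the filter on low counts, so 36 genes were tested.

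**Figure D1:**
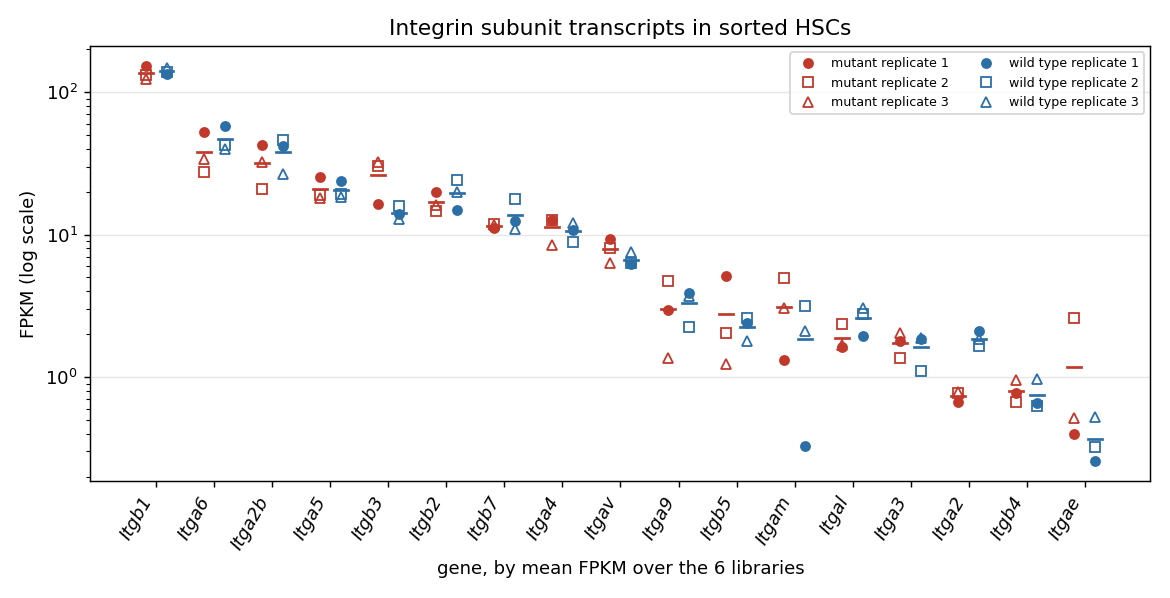
Level of the 17 integrin subunits with a mean of at least 0.5 FPKM in each library (points, FPKM on a log scale; short lines are group means), mutant left of wild type for each gene. Itgb1 stands above all other subunits at 123 to 153 FPKM, and the 3 mutant points of Itga2 lie below its 3 wild-type points.

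No adhesion gene differed between mutant and wild-type HSCs past a Benjamini-Hochberg adjusted p of 0.05 in edgeR's quasi-likelihood test, in which 0.0208% of the 14443 genes tested passed. At an unadjusted p under 0.05, 1 of the 36 genes had higher values in mutant cells (Itgb3), where 2.28% of all genes did. In the same test 1 had lower values (Itga2), where 1.70% of all genes did. DESeq2 on the same counts called 1 adhesion gene, Itga2, at an adjusted p under 0.05, where 0.284% of all genes passed. The authors' deposited table, which rests on the same counts, also lists Itga2 as its only adhesion gene past 0.05, where 0.231% of its genes pass. Of the 36 genes, 21 had higher and 15 lower values in mutant cells, with a median log2 fold change of 0.06, while 50.1% of all genes had higher values, with a median of 0.00. The 3 mutant libraries lay above all 3 wild-type libraries for 2 genes (Jam3 and Cd63), where 5.86% of all genes did, and below them for 1 (Itga2), where 4.41% did. These counts used reads scaled for library size and composition (TMM). In either direction 3 of the 36 adhesion genes separated the groups, where 10.3% of all genes did. At an unadjusted p under 0.05 in either direction there were 2 of 36, where 3.99% of all genes passed, so both shares were near those of all genes. Without both libraries that hold Y-linked reads, edgeR called 0 adhesion genes, where 0.0137% of all genes passed the adjusted threshold. At an unadjusted p under 0.05, 4 adhesion genes then passed, where 2.94% of all genes did. Of these, Itgb3 had higher values (1.48% of all genes), and Itga2, Itga6 and Itgb2 had lower values in mutant cells (1.46% of all genes).

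**Figure D2:**
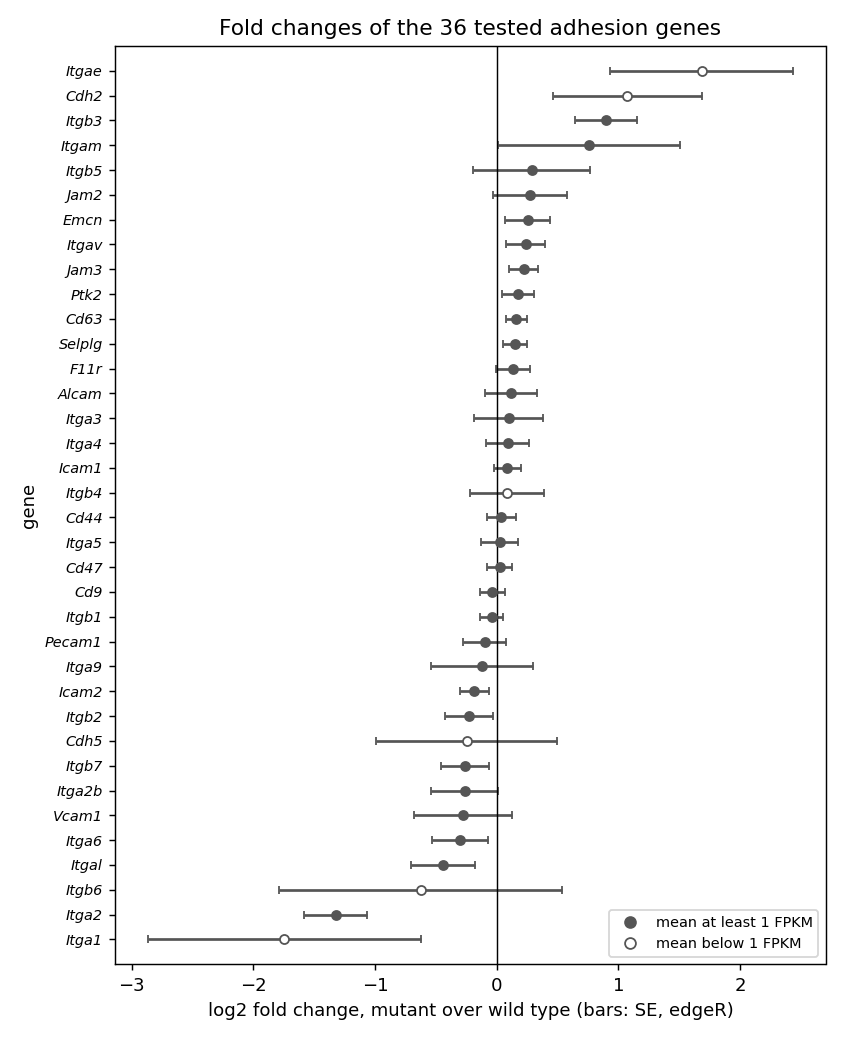
Log2 fold change of the 36 tested adhesion genes, mutant over wild type, with the standard error of the edgeR fit; open points have a mean below 1 FPKM. Most genes lie close to 0, Itga2 lies at -1.32 and Itgb3 at 0.90, and the widest bars belong to genes of low level.

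Itga2, the alpha 2 subunit, was lower in every mutant library. The protein, also called CD49b, is a collagen receptor of platelets and NK cells, and its surface level is used to divide mouse HSCs into subsets. The gene (ENSMUSG00000015533, mm10 chromosome 13, 114835916 to 114932041, minus strand) had 0.666, 0.772 and 0.784 FPKM in the mutant libraries, against 2.11, 1.64 and 1.84 FPKM in wild type. The highest mutant value lay below the lowest wild-type value. Behind these levels stood 64, 87 and 82 reads in mutant and 225, 172 and 181 reads in wild-type libraries. The log2 fold change was -1.32 (SE 0.26), a scaled level lower by a factor of 2.5 in mutant libraries. In edgeR the unadjusted p was 0.000932 and the adjusted p was 0.591. DESeq2 gave -1.33 with an adjusted p of 0.00489, and the authors' deposited table lists -1.33 with 0.00657. Count-based fits thus gave nearly the same fold change but not the same call, and limma on log2(FPKM + 1) gave -0.71. In edgeR the fold change stayed between -1.39 and -1.23 when each library was left out in turn, with unadjusted p-values of 0.00206 to 0.00492. Without both libraries that hold Y-linked reads it was -1.15, and the ratio of replicate 1 mutant to replicate 1 wild type was -1.68 on the log2 scale. An exact two-sided permutation test on FPKM gave p = 0.1, the smallest that 3 against 3 libraries allow. Any gene whose groups do not overlap gets this value, Itgb3 among them on FPKM, so it adds nothing to the separation itself.

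Markers of NK cells, basophils, megakaryocytes and platelets were at or near 0 or overlapped between the groups. The NK cell receptor gene Ncr1 was listed at 0 in all 6 libraries, and the basophil protease gene Mcpt8 was at 0 in all mutant libraries and at most 0.200 FPKM in wild type. Klrb1c and Nkg7, also NK cell markers, had 8.60, 2.74 and 6.39 FPKM and 45.1, 28.2 and 44.6 FPKM in mutant libraries. In wild-type libraries Klrb1c had 7.35, 4.52 and 5.91 FPKM and Nkg7 had 62.2, 61.3 and 35.9 FPKM, so both overlapped between the groups. The summed level of T and NK cell markers was 35.9 to 59.3 FPKM in mutant and 46.1 to 73.3 FPKM in wild-type libraries. For megakaryocyte and platelet markers it was 728 to 842 FPKM in mutant and 771 to 790 FPKM in wild type. The part of such cells in the Itga2 values was not tested.

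Itga1, the alpha 1 collagen receptor subunit, lies 26.0 kb from Itga2 on the same strand. It had 0, 0.0813 and 0.195 FPKM in mutant libraries and 0.224, 0.584 and 0.129 FPKM in wild type, from 181 reads in all (log2 fold change -1.75, SE 1.12). The groups overlapped. Pelo, a ribosome rescue gene that lies inside Itga1 on the same strand, had 5.48, 4.93 and 5.49 FPKM in mutant libraries against 5.84, 5.65 and 7.11 FPKM in wild type.

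The promoters of Itga2 and of its partner Itgb1 are shown because Itga2 is the gene of the set that stands apart, and Itgb1 encodes the other subunit of the same receptor. The sequences are the 250 bases before the RefSeq transcript start on the gene's strand (GRCm38.p6, the assembly of mm10). Capitals mark a match to one of the motifs searched on both strands.
Itga2, chr13:114932101-114932350, minus strand: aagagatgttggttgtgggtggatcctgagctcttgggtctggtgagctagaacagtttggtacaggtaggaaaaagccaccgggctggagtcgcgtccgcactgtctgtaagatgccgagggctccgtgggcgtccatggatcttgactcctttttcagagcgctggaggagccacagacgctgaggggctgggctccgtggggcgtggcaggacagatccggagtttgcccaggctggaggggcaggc
Itgb1, chr8:128685404-128685653, plus strand: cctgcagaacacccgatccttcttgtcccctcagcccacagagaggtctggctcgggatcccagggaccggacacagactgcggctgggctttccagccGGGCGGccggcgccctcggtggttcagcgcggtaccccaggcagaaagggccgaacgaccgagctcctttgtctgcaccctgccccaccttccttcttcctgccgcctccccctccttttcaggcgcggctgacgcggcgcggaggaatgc
Base composition separated them, with 60.8% G and C and 12 CG pairs in Itga2, and 68.0% and 21 in Itgb1, against medians of 52.4% and 6 over 32841 promoter windows. Motifs of 8 kinds were searched on both strands in 26 windows of the 23 adhesion genes that matched the RefSeq table. No searched motif occurred in the window of Itga2, and Itgb1 held a single Sp1 motif, 151 bases before the start. The Sp1 motif GGGCGG was present in 13 of the 26 windows, with Cd47 and Itga3 counted by 2 windows each, against 32.7% of all windows. This motif holds only G and C, and the 26 windows had higher medians than all windows, 59.2% G and C and 11 CG pairs. The ETS motif CGGAAG was present in 5, against 13.6%. The RUNX motif TGTGGT was present in 2, against 14.0%, and the GATA factor motif AGATAA was also in 2, against 9.99%. The AP-1 motif TGANTCA was present in 2, against 6.75% of all windows. In 0 of the 26 windows occurred a second GATA factor motif, TGATAA, against 7.94% of all windows. The CREB motif TGACGTCA was in 0, against 1.55%, and the TATA box letters TATAAA were in 0, against 12.4%. Such matches describe the letters only.

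Itgb3, the beta 3 subunit that forms the fibrinogen receptor with alpha 2b and the vitronectin receptor with alpha v, had the lowest p among the adhesion genes with higher values in mutant cells. Itgb3 (ENSMUSG00000020689, chromosome 11, 104608000 to 104670476, plus strand) had 16.3, 30.4 and 32.1 FPKM in the mutant libraries, against 13.9, 15.8 and 12.8 FPKM in wild type. Mutant replicates 2 and 3 stood apart, while mutant replicate 1 was within 1 FPKM of wild-type replicate 2. After scaling for library composition the groups overlapped, with scaled counts (TMM CPM) of 92.2, 177 and 188 in mutant and 79.5, 93.4 and 73.1 in wild-type libraries. The log2 fold change was 0.90 (SE 0.25), with an unadjusted p of 0.00768 and an edgeR adjusted p of 0.999. DESeq2 gave 0.89 with an adjusted p of 0.0713, and the authors' deposited table lists 0.89 with 0.0643. Leaving out each library in turn gave 0.72 to 1.16, with unadjusted p-values of 5.44e-05 to 0.0324 in edgeR. Without both libraries that hold Y-linked reads the value was 1.14 (unadjusted p = 0.000471, adjusted p = 0.591 in edgeR), while the log2 ratio of mutant to wild type was 0.21 within replicate 1. A term for this difference, added after the values were seen, was -0.92 (SE 0.27). For the libraries with Y-linked reads it rests on replicate 1 alone, so no p-value is given. Itgb3 was not alone in this, as the term was -1.27 (SE 0.42) for Vcam1, 0.92 (SE 0.29) for Itgb2 and 0.69 (SE 0.28) for Pecam1. The largest term was 9.59 (SE 1.74) for Itgb6, which had 0 reads in wild-type replicate 1. These genes were picked after their values were seen, and no share of all genes is given.

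Of the partners of beta 3, Itga2b had 42.4, 20.9 and 32.5 FPKM in mutant libraries, against 41.8, 45.8 and 26.8 FPKM in wild type (log2 fold change -0.26, SE 0.28). Its values overlapped between the groups, and the lowest of all 6 was in mutant replicate 2, where Itgb3 was high. Megakaryocyte and platelet markers, with 17 tested, had 6 with higher and 11 with lower values in mutant cells and a median log2 fold change of -0.16. Their summed level was 842, 772 and 728 FPKM in mutant libraries and 790, 771 and 780 FPKM in wild type, and it was not lowest in mutant replicate 2. Pf4, the platelet chemokine, chosen after its values were seen, was lowest there, with 75.8, 34.1 and 57.7 FPKM in mutant libraries and 80.0, 83.6 and 53.2 FPKM in wild type. Gp9, a subunit of the platelet receptor for von Willebrand factor, had 58.4, 41.7 and 40.1 FPKM in mutant libraries and 49.3, 50.9 and 50.9 FPKM in wild type. Itgav had 9.25, 8.10 and 6.28 FPKM in mutant libraries, against 6.18, 6.29 and 7.56 FPKM in wild type (log2 fold change 0.24, SE 0.16). Mutant replicates 2 and 3, which had the most Itgb3 transcripts, were not the highest for Itgav. Itgb3 and Itga2b lie 2138 kb apart on chromosome 11, which carries 7 of the 39 genes.

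**Figure D3:**
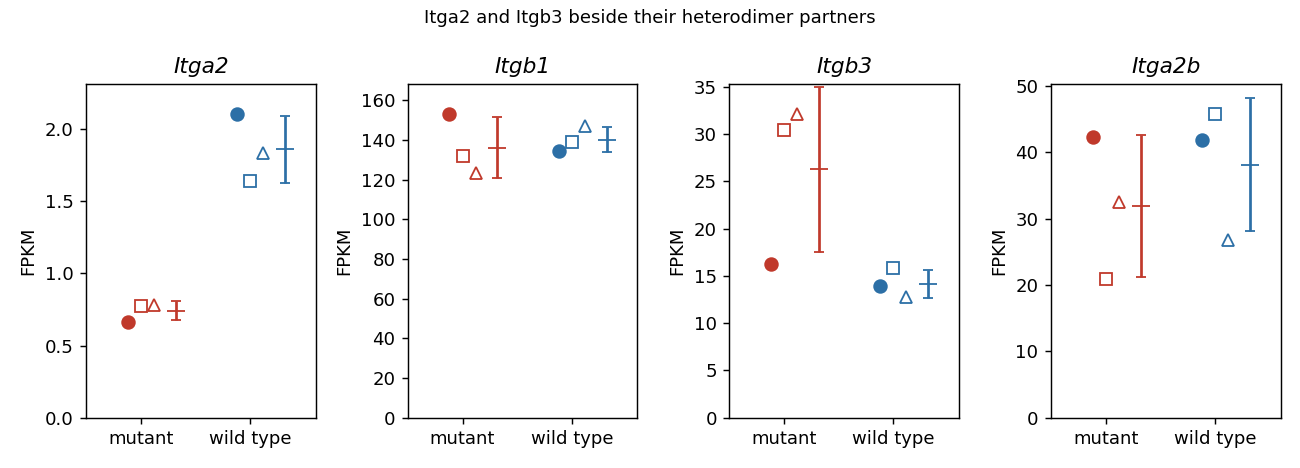
FPKM of Itga2, Itgb1, Itgb3 and Itga2b in each library (filled circle, replicate 1; open square, replicate 2; open triangle, replicate 3), with the mean and SD of 3 libraries beside the points. The Itga2 groups are apart at 0.666 to 0.784 and 1.64 to 2.11 FPKM, 2 of the 3 mutant libraries exceed 30 FPKM for Itgb3, and Itgb1 and Itga2b overlap between the groups.

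Itgb1, the common partner of most matrix-binding alpha subunits, differed by less than its spread between libraries. It had 153, 132 and 123 FPKM in mutant libraries, against 135, 139 and 147 FPKM in wild type (log2 fold change -0.04, SE 0.09). The mutant libraries enclosed all wild-type values. Laminin receptor subunit Itga6 had 52.0, 27.5 and 34.0 FPKM in mutant libraries, against 57.6, 42.2 and 39.7 FPKM in wild type (log2 fold change -0.30, SE 0.23, unadjusted p = 0.233). Replicate 1 was the highest library for Itga6 in both groups. Without both replicate 1 libraries its log2 fold change was -0.40, with an unadjusted p of 0.0400 and an edgeR adjusted p of 0.9997.

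The fibronectin receptor subunit Itga5 had 25.2, 19.1 and 18.1 FPKM in mutant libraries, against 23.6, 19.2 and 18.4 FPKM in wild type (log2 fold change 0.03, SE 0.15). Itga4, the alpha subunit of the VCAM1 receptor, had 12.7, 12.7 and 8.48 FPKM in mutant libraries, against 10.8, 8.87 and 12.1 FPKM in wild type (log2 fold change 0.09, SE 0.18). Both overlapped between the groups. Itgb7, which pairs with alpha 4 and alpha E, had 11.1, 11.8 and 11.7 FPKM in mutant libraries, against 12.4, 17.8 and 10.96 FPKM in wild type (log2 fold change -0.26, SE 0.20). The spread of Itgb7 came from wild-type replicate 2. Itga9, which binds VCAM1, tenascin and osteopontin, averaged 3.01 ± 1.68 FPKM in mutant and 3.30 ± 0.92 FPKM in wild-type libraries (SD, n = 3 each). For the laminin receptor subunit Itga3 the means were 1.73 ± 0.332 and 1.62 ± 0.444 FPKM in mutant and wild-type libraries.

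Leukocyte integrins, the beta 2 family of white blood cells, were low except for the beta subunit itself. Itgb2 had 19.8, 14.7 and 16.0 FPKM in mutant libraries, against 14.9, 24.2 and 20.0 FPKM in wild type (log2 fold change -0.23, SE 0.20). Itgal, the alpha subunit of LFA-1, had 1.63, 2.36 and 1.69 FPKM in mutant libraries, against 1.93, 2.75 and 3.04 FPKM in wild type (log2 fold change -0.44, SE 0.26). In both genes the mutant means were lower and the groups overlapped. Itgam, which encodes CD11b of neutrophils and macrophages, had 1.31, 4.98 and 3.07 FPKM in mutant libraries, against 0.328, 3.13 and 2.09 FPKM in wild type (log2 fold change 0.76, SE 0.75). It was 0.24 without mutant replicate 2, 0.25 without wild-type replicate 1 and 1.40 without wild-type replicate 2. Replicate 1 was the lowest library of its group for Itgam, as it was for the summed neutrophil markers. Replicates 2 and 3 ranked in opposite order in both groups. Itgam was higher in replicate 2, while the summed neutrophil markers were higher in replicate 3. All 18 neutrophil markers were tested, of which 17 had higher and 1 lower values in mutant cells, with 0 past the adjusted threshold in edgeR, 1 at an unadjusted p under 0.05 and a median log2 fold change of 0.56. The part of neutrophil transcripts in the Itgam values was not tested.

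Itgae, the alpha E subunit that binds E-cadherin, had 0.399, 2.60 and 0.514 FPKM in mutant libraries, against 0.256, 0.324 and 0.523 FPKM in wild type. Its log2 fold change of 1.68 (SE 0.75, unadjusted p = 0.0565) rested on mutant replicate 2 and was 0.32 without it. T and NK cell markers together were lowest in that library, with a summed level of 59.3, 35.9 and 56.0 FPKM in mutant libraries and 73.3, 68.6 and 46.1 FPKM in wild type. Of the 4 tested, 1 had higher and 3 had lower values in mutant cells. Cd3g, a T cell receptor subunit picked after its values were seen, was highest there, with 0, 0.878 and 0.158 FPKM in mutant libraries and 0 in all wild-type libraries. B and plasma cell markers summed to 52.8, 104 and 59.7 FPKM in mutant libraries and 45.4, 60.1 and 49.6 FPKM in wild type. Their sum was highest in mutant replicate 2. All 8 tested had higher values in mutant cells, where 50.1% of all genes did, and 0 passed the adjusted threshold in edgeR. The part of T, NK, B and plasma cells in the Itgae values was not tested. Gsg2, a mitotic kinase gene that overlaps Itgae on the other strand, was not raised in mutant replicate 2. It had 6.60, 6.66 and 11.5 FPKM in mutant libraries and 9.31, 8.64 and 10.8 FPKM in wild type.

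The remaining beta subunits were low. Itgb5, another vitronectin receptor subunit, had 5.08, 2.02 and 1.24 FPKM in mutant libraries, against 2.39, 2.60 and 1.79 FPKM in wild type. Its log2 fold change was 0.29 with all libraries and -0.45 without mutant replicate 1. Itgb4, known from the hemidesmosomes of epithelia, averaged 0.796 ± 0.141 FPKM in mutant and 0.751 ± 0.191 FPKM in wild-type libraries. Itgb6, which is typical of epithelia, averaged 0.242 ± 0.0942 FPKM in mutant and 0.371 ± 0.323 FPKM in wild-type libraries (SD, n = 3 each), with 0 reads in wild-type replicate 1.

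As a share of the summed FPKM of all beta subunits, Itgb1 made up 69.8 ± 3.92% in mutant and 73.4 ± 3.59% in wild-type libraries. Itgb3 made up 7.89%, 15.9% and 17.3% in the mutant libraries, against 7.77%, 7.87% and 6.59% in wild type. Only mutant replicates 2 and 3 thus lay clearly outside the wild-type range. The summed beta level was 195 ± 10.7 FPKM in mutant and 191 ± 11.2 FPKM in wild-type libraries. Among alpha subunits, Itga6 held 30.6 ± 4.27% in mutant and 34.5 ± 3.44% in wild-type libraries, and Itga2b held 26.0 ± 5.31% and 28.2 ± 5.71% (SD, n = 3 each). Itga2 made up 0.632 ± 0.164% of the alpha sum in mutant and 1.39 ± 0.169% in wild-type libraries. The summed alpha level was 122 ± 25.1 FPKM in mutant and 134 ± 16.4 FPKM in wild-type libraries, and mutant replicates 2 and 3 were the lowest of the 6.

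**Figure D4:**
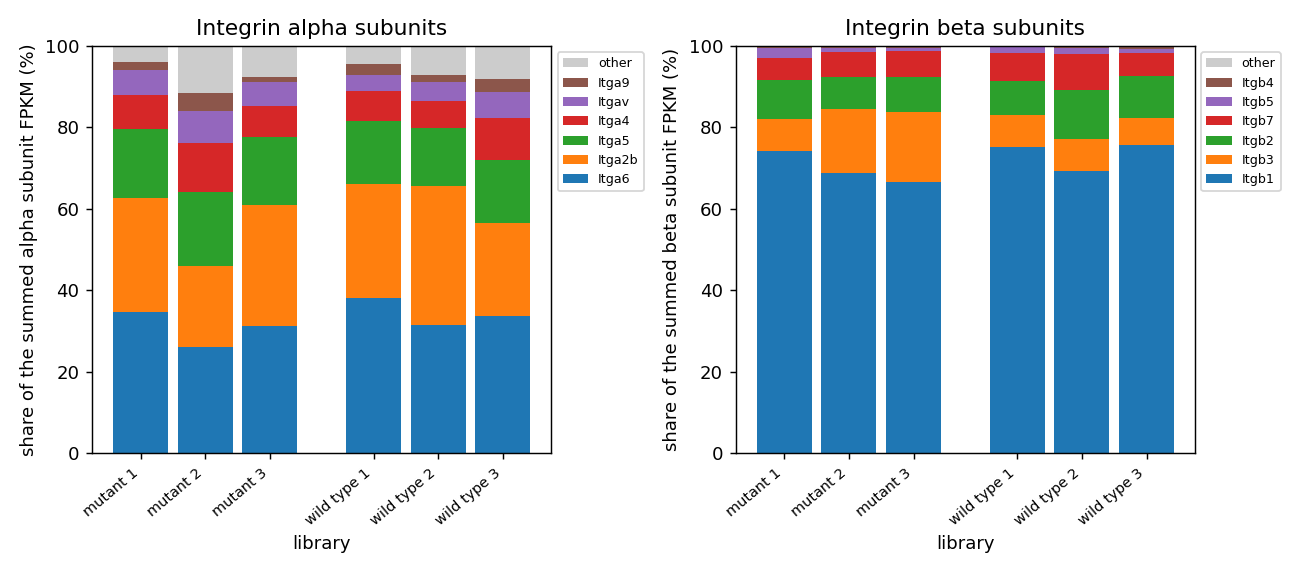
Share of each subunit in the summed FPKM of 14 alpha subunits (left panel) and 8 beta subunits (right panel) in each library, in percent, with the 6 most abundant named. Itgb1 takes 66.5% to 75.7% of the beta sum in every library, and the Itgb3 band is widest in mutant replicates 2 and 3.

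Among the 17 molecules that are not integrins, 12 had higher and 5 lower values in mutant cells, and none passed an unadjusted p of 0.05 in edgeR. Cd63, a tetraspanin of endosomes and platelet granules, had 457, 517 and 477 FPKM in mutant libraries, against 433, 428 and 439 FPKM in wild type (log2 fold change 0.16, SE 0.09, unadjusted p = 0.0948). The groups did not overlap, and the mutant mean exceeded the wild-type mean by more than the SD of either group (484 ± 30.5 and 433 ± 5.45 FPKM). Cd9, a tetraspanin that associates with integrins, had 128, 104 and 118 FPKM in mutant libraries, against 116, 127 and 117 FPKM in wild type (log2 fold change -0.04, SE 0.10). Cd47, the integrin-associated signal that protects cells from macrophages, had 150, 122 and 143 FPKM in mutant libraries, against 130, 127 and 150 FPKM in wild type (log2 fold change 0.03, SE 0.10). Both overlapped between the groups. Ptk2, the focal adhesion kinase, averaged 8.67 ± 1.03 FPKM in mutant and 7.69 ± 0.238 FPKM in wild-type libraries (log2 fold change 0.18, SE 0.13).

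All 3 junctional adhesion molecules had higher mean values in mutant cells. Jam3, which binds Jam2 on stromal cells, had 22.8, 21.3 and 20.2 FPKM in mutant libraries, against 18.7, 16.4 and 20.1 FPKM in wild type (log2 fold change 0.22, SE 0.12, unadjusted p = 0.0982). The lowest mutant and the highest wild-type library differed by less than 1 FPKM. F11r, which encodes JAM-A, had 66.1, 45.0 and 48.5 FPKM in mutant libraries, against 50.2, 47.4 and 47.5 FPKM in wild type (log2 fold change 0.13, SE 0.14). Its higher mean came from mutant replicate 1, and without that library the log2 fold change was -0.03. Jam2 averaged 6.64 ± 2.07 FPKM in mutant and 5.52 ± 2.01 FPKM in wild-type libraries (SD, n = 3 each).

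**Figure D5:**
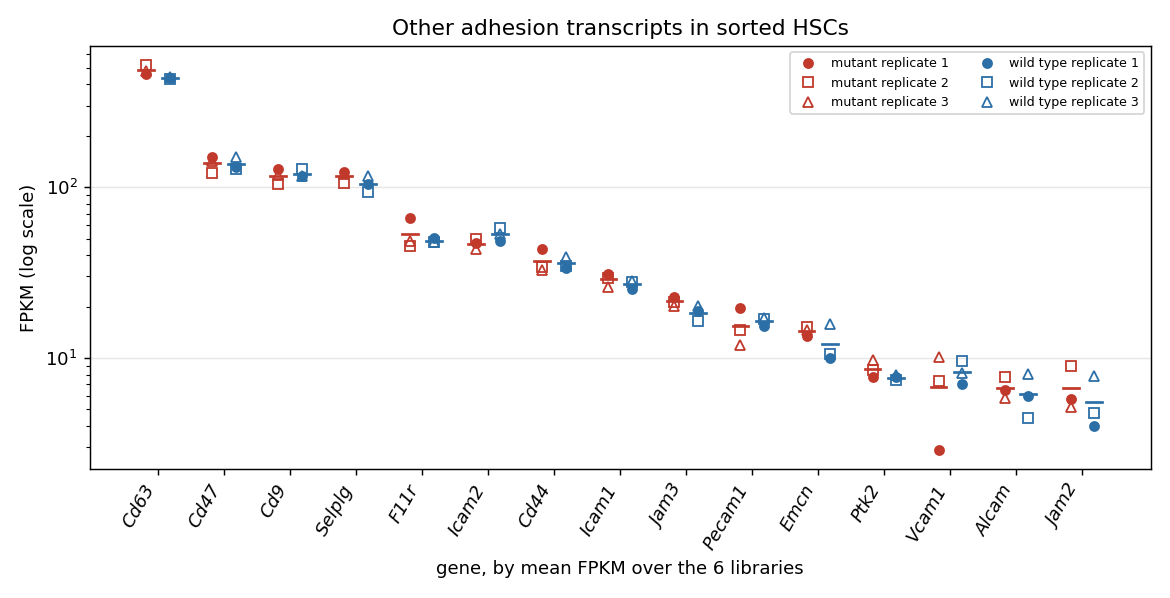
Level of the 15 other adhesion genes with a mean of at least 0.5 FPKM in each library (points, FPKM on a log scale; short lines are group means), mutant left of wild type for each gene. Cd63 is highest at 428 to 517 FPKM, and mutant replicate 1 is the lowest point of Vcam1 at 2.90 FPKM.

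Selplg, the P-selectin ligand by which HSCs roll on marrow vessels, had 123, 105 and 119 FPKM in mutant libraries, against 104, 93.3 and 115 FPKM in wild type (log2 fold change 0.15, SE 0.10). The hyaluronan receptor Cd44 averaged 36.8 ± 5.71 FPKM in mutant and 35.8 ± 2.97 FPKM in wild-type libraries (log2 fold change 0.04, SE 0.12). The sialomucin Emcn, a marker shared by HSCs and endothelium, averaged 14.4 ± 0.946 FPKM in mutant and 12.1 ± 3.23 FPKM in wild-type libraries (log2 fold change 0.25, SE 0.18). Each of these 3 genes overlapped between the groups.

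Of the immunoglobulin-type molecules, Icam2, a ligand of LFA-1, had 47.3, 49.6 and 43.3 FPKM in mutant libraries, against 48.3, 57.6 and 53.5 FPKM in wild type (log2 fold change -0.19, SE 0.12). Icam1, another ligand of LFA-1, averaged 28.8 ± 2.46 FPKM in mutant and 27.1 ± 1.44 FPKM in wild-type libraries. Pecam1, known from endothelium, platelets and HSCs, averaged 15.4 ± 3.99 FPKM in mutant and 16.4 ± 0.923 FPKM in wild-type libraries. Alcam, which binds CD6, averaged 6.69 ± 0.93 FPKM in mutant and 6.18 ± 1.81 FPKM in wild-type libraries. Vcam1, the ligand of alpha 4 beta 1, had 2.90, 7.33 and 10.2 FPKM in mutant libraries, against 7.02, 9.64 and 8.15 FPKM in wild type. Its log2 fold change of -0.27 (SE 0.40) became 0.10 without mutant replicate 1. Macrophage and monocyte markers summed to 504, 648 and 605 FPKM in mutant libraries and 527, 510 and 583 FPKM in wild type. Mutant replicate 1 was lowest here too, but the ranks differed otherwise. The next lowest sum was in wild-type replicate 2, where Vcam1 was 9.64 FPKM. The highest sum was in mutant replicate 2, where Vcam1 was 7.33 FPKM. Of 11 tested macrophage markers 6 had higher and 5 lower values in mutant cells, and their part in the Vcam1 values was not tested.

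Both cadherins were near the limit of detection. Cdh2, N-cadherin, had 17, 29 and 56 reads in mutant libraries, against 21, 18 and 9 reads in wild type (log2 fold change 1.07, SE 0.62). Cdh5, the cadherin of endothelial junctions, had 8, 44 and 29 reads in mutant libraries, against 39, 45 and 10 reads in wild type (log2 fold change -0.25, SE 0.74). The values of both genes overlapped between the groups. Of 13 tested endothelial and stromal markers, 3 had higher and 10 lower values in mutant cells, with a median log2 fold change of -0.77, 0 called in edgeR and 1, Kdr, lower at an unadjusted p under 0.05. They summed to 118 to 127 FPKM in mutant and 119 to 135 FPKM in wild-type libraries, and their part in the Cdh5 values was not tested.

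The cytoplasmic genes that activate integrins and link them to actin gave no called gene either. Of 62 genes in this list 57 were tested; 27 had higher and 30 lower values in mutant cells, with a median log2 fold change of 0.00. In edgeR 0 passed the adjusted threshold, 2 had lower values at an unadjusted p under 0.05, and DESeq2 called 0 of them. Rapgef1, an exchange factor for the integrin-activating GTPase Rap1, averaged 3.21 ± 0.998 FPKM in mutant and 6.03 ± 2.01 FPKM in wild-type libraries (log2 fold change -0.91, SE 0.28; edgeR adjusted p = 0.999). Rapgef3, a Rap1 exchange factor that cAMP activates directly, averaged 1.83 ± 0.237 FPKM in mutant and 2.89 ± 0.894 FPKM in wild-type libraries (log2 fold change -0.65, SE 0.27). In both genes the mutant libraries lay below all wild-type libraries, as they did for 5 of the 57 in all, while 1 lay above, where 4.41% and 5.86% of all genes did. The 2 genes with lower values at an unadjusted p under 0.05 compare with 1.70% of all genes. Talin and kindlin 3, which bind the integrin beta tail, were abundant in both groups, with Tln1 at 107 ± 11.6 FPKM in mutant and 102 ± 8.42 FPKM in wild-type libraries. Fermt3, which encodes kindlin 3, had 248 ± 15.8 FPKM in mutant and 270 ± 17.0 FPKM in wild-type libraries, and Rap1b had 303 ± 11.8 FPKM in mutant and 298 ± 28.0 FPKM in wild-type libraries (SD, n = 3 each).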

How the data were processed

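Per the submitters' processing notes, the tools were CASAVA, STAR, HTSeq 0.6.1 and DESeq2 with the build mm10, with no role or order. The authors deposited raw read counts, FPKM, size-factor-normalized signal (not used here), log2 fold changes and p-values per gene. The annotation release and strand setting are not given in the sources used here; 8 of the adhesion genes overlap another gene. Deposited FPKM equals reads scaled to gene length and library total to within 0.0204% (values above 0.01 FPKM).

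Deposited counts were fitted with edgeR 4.0.16 under R 4.3.3 (TMM, filterByExpr, quasi-likelihood F test, two-sided), with Benjamini-Hochberg adjustment over 14443 genes and a threshold of 0.05. Standard errors divide each log2 fold change by the square root of F. On simulated data the fit called 12.2% of 1.5-fold and 42.9% of 2-fold changes at an adjusted p under 0.05. For 4-fold and 8-fold changes it called 74.0% and 94.0%. The simulation changed 50 genes at each fold, while in the deposited counts 3 of 14443 genes passed. With fewer genes passing, the adjusted threshold demands a smaller unadjusted p, so these shares can be too high for these data. A gene that was not called is thus not shown to be unchanged. Alternatives were DESeq2 1.42.0, limma 3.58.1 on log2 FPKM, other scalings, no filter, each library left out, both libraries with Y-linked reads left out, and the replicate block. Checked for a library deposited more than once, all pairs differed by more than counting noise.

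The genes and lists were chosen with earlier results of these data known. Every adhesion gene is named; values in each library are given for those with an unadjusted p under 0.05, filled to 8 by the smallest p at 1 FPKM or more, the most abundant, and their partners. Other genes shown by library were chosen after their values were seen. Promoter sequences are from RefSeq (GRCm38.p6).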

Additional observations from a re-analysis of the deposited data

How the results depend on the processing

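Under up to 15 other settings (13 for Itga1, Itgb6, Cdh2 and Cdh5), 20 of the 36 tested genes kept the sign of their log2 fold change, and Itga2 and Itgb3 had an unadjusted p under 0.05 in all 15. No adhesion gene passed the adjusted threshold except Itga2 in DESeq2, so the number called was 0 in edgeR and limma and 1 in DESeq2; without each library in turn it was 0 to 0. At an unadjusted p under 0.05, 1 gene had higher values in edgeR with all libraries. The number was 2 with no filter on low counts and in DESeq2 (Itgb3 and Itgae). It was also 2 with the replicate block (Itgb3 and Itgam), and 1 to 3 without each library. The number with lower values, also 1, was 2 with the replicate block (Itga2 and Itga6), 3 without both libraries with Y-linked reads, and 1 to 2 without each library. Shares of all genes at this level are given only for the main fit, the replicate block and the fit without both libraries with Y-linked reads. The counts in other settings thus stand without a comparison. The adhesion complex list had 0 called genes in every setting. The median log2 fold change ranged from 0.00 to 0.10 without each library.

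Without both libraries with Y-linked reads the log2 fold change had the other sign for Itga5 (-0.0085), Itga9 (0.043), Itgb5 (-0.42), Cd44 (-0.12), F11r (-0.012), Cdh5 (0.32) and Cd47 (-0.054); the cause was not tested. On log2(FPKM + 1) the value of Itga2 was -0.71, since the pseudocount shrinks low genes.

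Of same-numbered libraries only replicate 1 had a correlation of deviations above 0.1 (0.138 across genes, against 0.00181 and -0.0940 for replicates 2 and 3). Mutant replicate 3 with wild-type replicate 2 reached 0.146 and mutant replicate 2 with wild-type replicate 3 reached 0.102, so the numbers were not taken as pairs; with the replicate block 0 adhesion genes were called, where 0.0138% of all genes passed, and 1.95% had higher and 1.83% lower values at an unadjusted p under 0.05.

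Without each library in turn the sign changed for Alcam (-0.052 to 0.35), Cd44 (-0.076 to 0.10), Cd47 (-0.017 to 0.11), Cd9 (-0.088 to 0.034), Cdh5 (-0.72 to 0.17), F11r (-0.030 to 0.24), Itga3 (-0.10 to 0.24), Itga4 (-0.0092 to 0.25), Itga5 (-0.12 to 0.13), Itga9 (-0.61 to 0.22), Itgb1 (-0.12 to 0.012), Itgb4 (-0.071 to 0.30), Itgb5 (-0.45 to 0.63), Jam2 (-0.017 to 0.59), Pecam1 (-0.29 to 0.050) and Vcam1 (-0.69 to 0.10). Itga1, Itgb6, Cdh2 and Cdh5 had few reads and wide errors, and whether depth or the spread between libraries sets these errors was not tested.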

Other observations

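A list of 36 matrix proteins and counter-receptors of integrins was mostly absent or low in the sorted cells. Among the adhesion genes above, the integrin ligands Icam1, Icam2 and Vcam1 averaged 28.0, 49.9 and 7.54 FPKM over the 6 libraries. Of 36 matrix proteins and counter-receptors, 21 were tested, 16 with higher and 5 with lower values in mutant cells and a median log2 fold change of 0.18. None passed the adjusted threshold in edgeR, 0 had an unadjusted p under 0.05, and the list was not tested as a set. Vwf, the platelet adhesion protein, averaged 12.4 ± 0.671 FPKM in mutant and 10.6 ± 2.76 FPKM in wild-type libraries. Thbs1, thrombospondin 1, averaged 18.7 ± 27.4 FPKM in mutant and 5.13 ± 4.66 FPKM in wild-type libraries (SD, n = 3 each), so the spread within the mutant group exceeded the difference. Osteopontin, Spp1, averaged 5.19 ± 2.88 FPKM in mutant and 4.61 ± 0.767 FPKM in wild-type libraries.

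Of 36 other homing and adhesion receptors, 34 were tested, 14 with higher and 20 with lower values in mutant cells and a median log2 fold change of -0.02. None passed the adjusted threshold in edgeR, and 1, Cd200, had an unadjusted p under 0.05. Cd200, an immune checkpoint ligand, averaged 7.55 ± 1.02 FPKM in mutant and 11.2 ± 2.62 FPKM in wild-type libraries. Cxcr4, the chemokine receptor that retains HSCs in the marrow, averaged 10.9 ± 0.211 FPKM in mutant and 10.1 ± 1.09 FPKM in wild-type libraries.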
